A study of Mus musculus with 16 samples.

Results

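Cytochrome P450 enzymes of families 1 to 3 were followed in liver RNA of 16 mice. The members were the genes whose symbol places them in families 1, 2 or 3 (Cyp1, Cyp2 and Cyp3), without pseudogenes and without Cyp2a4, Cyp2b9, Cyp2b13 and Cyp2d9. Of 60 matching rows, 56 genes of the 35502 in the table remained, in 16 subfamilies on 8 chromosomes. The largest subfamilies were 2C with 15 members, 3A with 9, 2J with 8 and 2D with 7. The genes lie in clusters: 2C on chromosome 19, 2D on chromosome 15, 2J on chromosome 4, 3A on chromosome 5 and 2A, 2B, 2F, 2G, 2S and 2T on chromosome 7.

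The 4 groups held 4 mice each, with 1 library per mouse. They were mature LERKO and mature control mice, and immature LERKO and immature control mice. LERKO mice carry Cre and lack oestrogen receptor alpha (Esr1) in the liver, and the controls are floxed mice without Cre. The design text describes the mice as sexually mature or immature, while the title speaks of knockout before and after sexual maturity, so the labels leave open whether the stage is that of the knockout or of tissue collection. The sources used here give no Cre promoter, no age and no sex.

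P450 enzymes are haem proteins of the endoplasmic reticulum that insert 1 oxygen atom into lipophilic substrates, with electrons from P450 oxidoreductase (Por). Families 1 to 3 clear most drugs, toxins and steroids in the liver, and some members also oxidise fatty acids, bile acids and vitamin D. In mouse liver the transcripts of many are governed by the nuclear receptors CAR (Nr1i3) and PXR (Nr1i2), the aryl hydrocarbon receptor (Ahr) and the sex pattern of growth hormone release, and many lie higher near the central vein.

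Total counts were 18123974 to 23213905 per library. Esr1 stood at 10.7 to 19.1 CPM (each count as a share of a common library total, after TMM scaling) in the 8 LERKO libraries and at 55.3 to 110.1 CPM in the 8 control libraries. Hepatocyte markers summed to 99608 to 153243 CPM, and 5 of 6 kidney markers were at 0 in every library. Library 4 of mature LERKO stood apart: its acute phase genes summed to 100883 CPM, against at most 12127 CPM elsewhere. Within its group it ranked lowest for 20 of the 40 tested P450 genes and highest for 9, and its endothelial and stellate markers, at 92.0 and 62.3 CPM, were the lowest sums of the 16 libraries. Library 4 of immature LERKO ranked lowest within its group for 19 of 40. Low ranks were not limited to LERKO: mature control library 4 was lowest for 17 and immature control library 1 for 15. Skeletal muscle markers, which liver should lack, summed to 580.1, 244 and 44.7 CPM in mature control libraries 1, 2 and 4 and to 123 CPM in immature LERKO library 4, against at most 1.72 CPM in the other 12. Xist had 9 counts in library 2 of immature LERKO and 9107 to 14219 in the others, while only 2 of 735 Y-linked genes had a count in any library. Values without some of these libraries are given beside the results on which they weigh most. In whole liver, fewer cells of a type and less RNA per cell cannot be told apart.

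Of the 56 members, 40 passed the filter on low counts and were tested. Another 9 were at 0 in every library: Cyp2b19, Cyp2b23, Cyp2c66, Cyp2j7, Cyp2j11, Cyp2j12, Cyp2j13, Cyp2t4 and Cyp2w1. The remaining 7, Cyp1b1, Cyp2c65, Cyp2d11, Cyp2d12, Cyp2d34, Cyp2j8 and Cyp3a57, had at most 110 counts over all libraries together and at most 0.883 CPM in any. Among these 7, Cyp1b1 is the member of family 1 that hydroxylates oestradiol in many tissues outside the liver.

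Together the members took 1.15 to 2.82% of the counts of a library, the lowest share being that of mature LERKO library 4. Per kilobase of transcript, Cyp2e1 led. This enzyme oxidises ethanol and paracetamol and is known as a pericentral gene. It averaged 5473 CPM per kb and made up 47.8% of the summed P450 level per kb (38.5 to 59.0% over the libraries). Cyp2a5, which hydroxylates coumarin and nicotine, followed at 858 CPM per kb, Cyp2d26 at 673 and Cyp2a12 at 343. Cyp2e1 exceeded Cyp2a5 in 16 of 16 libraries and Cyp2d26 exceeded Cyp2a12 in 16 of 16, whereas Cyp2a5 exceeded Cyp2d26 in 11 of 16. From Cyp2a12 down to Cyp2j5 each gene exceeded the next in 8 to 11 of 16 libraries, so these neighbours were not separated beyond their spread. They were Cyp3a11 (322 CPM per kb), Cyp2d10 and Cyp2c37 (318 each), Cyp2c29 (262), Cyp1a2 (260.1), Cyp2c68 (259), Cyp2c70 (258), Cyp2c50 (245) and Cyp2j5 (230.1).

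**Figure D1:**
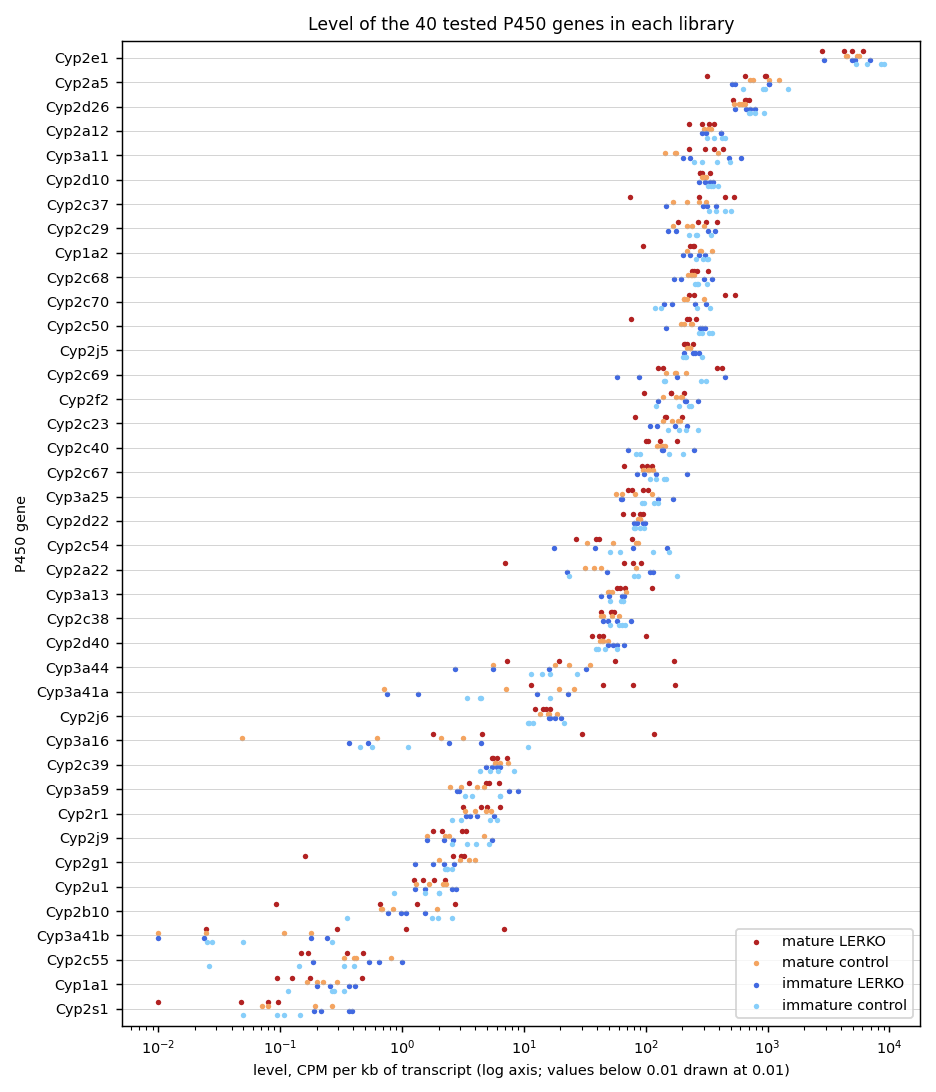
Level of each tested P450 gene in CPM per kb of transcript (log axis, values below 0.01 drawn at 0.01), with 1 point per library and 1 colour per group. Cyp2e1 stands above all others in each library, and the points of Cyp3a16, Cyp3a41a and Cyp3a44 are spread widely within groups.

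No P450 gene passed an adjusted p of 0.05 in any of 7 comparisons (edgeR quasi-likelihood test, adjusted over 13379 genes). Over all genes the share called was 0.00747% for mature LERKO against control, for immature LERKO against control and for LERKO against control over both stages, which is Esr1 alone. It was 0.0% for mature against immature controls, mature against immature LERKO, both genotypes together, and the difference of the LERKO effect between stages. At an unadjusted p below 0.05 stood 5 of 40 members for mature LERKO against control (7.3% of all genes) and 3 of 40 for immature LERKO against control (2.76%). For mature against immature mice the counts were 2 of 40 in controls (9.84%) and 6 of 40 in LERKO (4.93%). Pooled over stages, LERKO against control gave 2 (3.69%), the stages pooled over genotypes gave 6 (7.92%), and the difference of effects gave 3 (6.35%). Of the 5 members in mature LERKO against control, 4 were 3A genes and 1 was Cyp2s1. Of the 6 in mature against immature LERKO, 5 were 3A genes and 1 was Cyp2s1. Without mature LERKO library 4 these 2 comparisons gave 3 and 4 of 41 members, against 1189 and 788 of 13541 genes. Fitted on the 2 control groups alone, 10 of 38 members stood at an unadjusted p below 0.05, against 2107 of 12922 genes (edgeR). There the smallest adjusted p of a member was 0.0968, and 6 genes were called. Fitted on the 2 LERKO groups alone, mature against immature gave 4 of 39 members, against 316 of 12913 genes. DESeq2 called 0 members in each of the 7 comparisons. Over all genes it called 0.135% for mature and 0.0972% for immature LERKO against control, 0.553% for the stages in controls, 0.0448% for the stages in LERKO, 0.0224% for pooled LERKO, 0.217% for the pooled stages and 0.164% for the difference of effects.

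Fold changes were negative for 21 of 40 members in mature LERKO against control, with a median of -0.03 (51.8% of all genes), and for 24 of 40 in immature LERKO against control, with a median of -0.09 (46.8%). Without the libraries numbered 4 of both LERKO groups, which let 41 members pass the filter, 14 and 17 of 41 were negative in mature and in immature LERKO against control. The 95% interval of the fold change stayed within 2-fold in either direction for 23 of the 40 members in mature LERKO against control and for 24 in immature LERKO against control. Over all tested genes it did so for 81.2% and 83.4%. Members varied more between mice of a group than other genes: the SD within groups had a median of 0.48 on the log2 scale over the members and of 0.24 over all tested genes, and 33 of 40 members lay above 0.24.

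**Figure D2:**
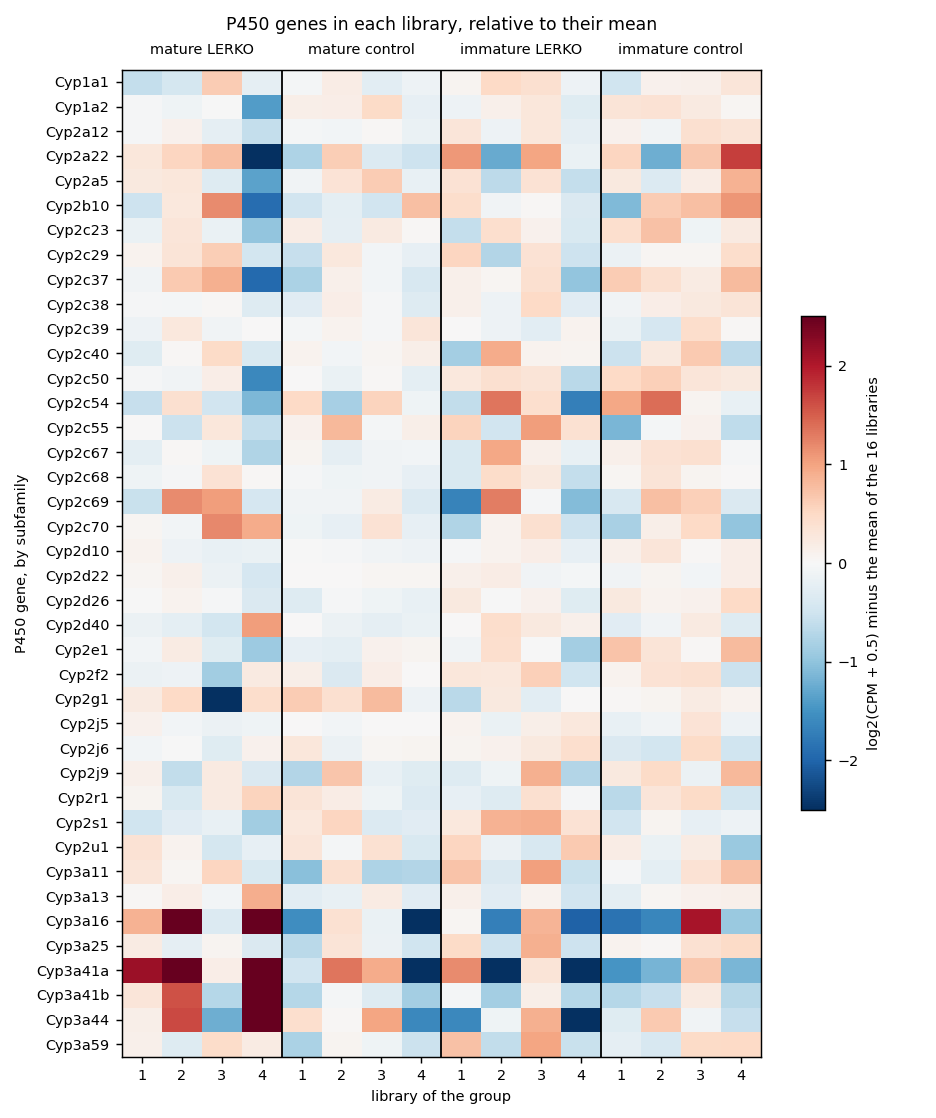
Tested P450 genes (rows, by subfamily) in the 16 libraries (columns, by group), as log2(CPM + 0.5) minus the mean of the gene over the libraries; red is above that mean and blue below. Library 4 of mature LERKO is blue for many 2A and 2C genes and dark red for Cyp3a16, Cyp3a41a, Cyp3a41b and Cyp3a44.

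The 3A subfamily held the widest spread. Cyp3a16, a form of fetal and newborn mouse liver, Cyp3a41a and Cyp3a41b, which are near copies known from female mouse liver, and Cyp3a44, also higher in females, were the 4 most variable members, with SDs within groups of 2.17, 1.92, 1.68 and 1.40 on the log2 scale (99.3rd percentile or above among tested genes). They lie in a row on the minus strand of chromosome 5, between 145436309 and 145805874 (GRCm38), beside Cyp3a11, the main Cyp3a gene of adult mouse liver. The 250 bases before the start of 3 of them and of Cyp3a11 are shown. The 3 were high and low in the same mature LERKO livers, while Cyp3a11 ran in the reverse order of these libraries. Cyp3a13 ran in the order of the 3 and is not shown. The choice was made with these levels seen, and the part of the sequences in the levels was not tested. The sequences are from RefSeq (GRCm38.p6) and run 5′ to 3′. Capitals mark TGTTTAC (recognised by FoxA factors), AGGTCA (a nuclear receptor hexamer) and CAAAGTCCA (HNF4), on either strand.
Cyp3a16, chr5:145469724-145469973, minus strand: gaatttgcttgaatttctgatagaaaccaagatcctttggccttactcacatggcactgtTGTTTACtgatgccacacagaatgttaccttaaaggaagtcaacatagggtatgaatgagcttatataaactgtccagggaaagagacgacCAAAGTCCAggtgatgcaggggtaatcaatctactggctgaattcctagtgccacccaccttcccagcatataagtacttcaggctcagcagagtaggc
Cyp3a41a, chr5:145720137-145720386, minus strand: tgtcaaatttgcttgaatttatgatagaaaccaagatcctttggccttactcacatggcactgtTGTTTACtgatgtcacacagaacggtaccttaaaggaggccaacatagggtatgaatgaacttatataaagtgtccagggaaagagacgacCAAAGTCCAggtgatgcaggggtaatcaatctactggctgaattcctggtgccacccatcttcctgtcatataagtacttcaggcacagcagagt
Cyp3a44, chr5:145805875-145806124, minus strand: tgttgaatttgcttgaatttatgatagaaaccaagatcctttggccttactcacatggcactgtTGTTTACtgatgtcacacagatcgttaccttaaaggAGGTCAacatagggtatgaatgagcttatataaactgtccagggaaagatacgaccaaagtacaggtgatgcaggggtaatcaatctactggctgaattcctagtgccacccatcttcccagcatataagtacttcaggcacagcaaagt
Cyp3a11, chr5:145879855-145880104, minus strand: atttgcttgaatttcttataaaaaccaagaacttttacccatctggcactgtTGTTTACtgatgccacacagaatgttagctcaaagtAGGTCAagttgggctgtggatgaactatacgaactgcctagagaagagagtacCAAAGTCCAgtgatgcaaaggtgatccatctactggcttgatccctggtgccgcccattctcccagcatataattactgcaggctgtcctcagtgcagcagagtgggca
The sequences of Cyp3a16, Cyp3a41a, Cyp3a41b and Cyp3a44 were 91.2 to 99.6% identical with each other and 70.8 to 75.6% identical with that of Cyp3a11. TGTTTAC began 186 to 198 bases before the start in all 5. CAAAGTCCA began 95 bases before the start in Cyp3a41a and Cyp3a41b, 99 in Cyp3a16 and 109 in Cyp3a11, and was not found in Cyp3a44. AGGTCA was found in Cyp3a44, 150 bases before the start, and in Cyp3a11, 162 bases before it.

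Of the 56 members 48 had a RefSeq promoter. Among them TGTTTAC was found in 8 (3.09% of 27018 promoters of this length), CAAAGTCCA in 10 (0.381%) and AGGTCA in 13 (13.84%). The STAT motif TTCNNNGAA was found in 2 (7.18%), the Ahr core GCGTG in 8, among them Cyp1a1, Cyp1b1 and Cyp2b10 (28.22%), the palindromic oestrogen response element in 0 (0.063%) and the palindromic HNF1 motif in 0 (0.007%). Both strands were searched, and a match to the oestrogen response element can overlap one to AGGTCA. Genes of a cluster share ancestry, so their matches are not independent.

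Cyp3a16 stood at 7.92, 52.4, 3.14 and 202 CPM in mature LERKO, against 1.07, 5.48, 3.62 and 0.0841 CPM in mature controls. Those control values rest on 21, 118, 81 and 2 counts. Cyp3a41a stood at 92.6, 163, 23.5 and 358 CPM in mature LERKO, against 14.7, 52.9, 39.7 and 1.47 CPM in mature controls. Cyp3a44 stood at 38.1, 109, 14.4 and 336 CPM in mature LERKO, against 46.0, 35.1, 68.3 and 10.9 CPM in mature controls. In mature LERKO all of these genes were highest in library 4, followed by library 2, and lowest in library 3, which lay within the control range. In mature controls library 4 was the lowest for each.

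The log2 fold change in mature LERKO against control was 4.69 (SE 1.33) for Cyp3a16, 2.55 (SE 1.05) for Cyp3a41a and 1.63 (SE 0.83) for Cyp3a44, and none passed (adjusted p = 0.481, 0.645 and 0.706, edgeR). Without mature LERKO library 4, the one with high acute phase genes, the values were 3.10 for Cyp3a16, 1.81 for Cyp3a41a and 0.47 for Cyp3a44. Without the 3 libraries with most muscle transcripts they were 5.18, 2.96 and 1.66 in the same order. Saa1, a serum amyloid gene of the acute phase, stood at 94.4, 25.5, 33.1 and 19031 CPM in the mature LERKO libraries. The part of the acute phase state in the Cyp3a values was not tested.

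Cyp3a41b and Cyp3a41a differ at 2 of 1512 coding bases, and 95.3% of the 75-base stretches of Cyp3a41a occur in another P450 transcript, so how reads were shared between both cannot be known from the table. Cyp3a41b had 12, 53, 1 and 238 counts in mature LERKO, against 1, 8, 5 and 0 in mature controls, which was at most 3.93% of the Cyp3a41a count in any library. The fitted difference of 4.65 on the log2 scale (SE 1.26, adjusted p = 0.481, edgeR) rests on those few control counts and was 2.61 without mature LERKO library 4.

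In immature mice LERKO and control libraries overlapped for the same genes. Cyp3a16 stood at 4.23, 0.906, 7.75 and 0.637 CPM in immature LERKO, against 0.778, 0.981, 18.6 and 1.93 CPM in immature controls. Cyp3a41a stood at 47.7, 1.55, 26.2 and 2.79 CPM in immature LERKO, against 7.10, 8.99, 33.5 and 9.19 CPM in immature controls. Cyp3a44 stood at 10.9, 31.5, 63.5 and 5.39 CPM in immature LERKO, against 27.5, 53.7, 32.2 and 22.6 CPM in immature controls. The highest Cyp3a16 value was that of a control and the highest Cyp3a41a and Cyp3a44 values those of LERKO libraries. The difference of the LERKO effect between stages was 5.43 for Cyp3a16 (SE 1.82, adjusted p = 0.740, edgeR), 2.14 for Cyp3a41a (SE 1.44) and 1.93 for Cyp3a44 (SE 1.16), and none passed. Without library 4 of mature LERKO these differences were 3.81, 1.38 and 0.75. Mature against immature LERKO gave 4.30 (SE 1.31) for Cyp3a16 and 3.02 (SE 1.07) for Cyp3a41a, with adjusted p of 0.951 and 0.955 (edgeR). Without library 4 of mature LERKO these were 2.67 and 2.25, and without library 2 of immature LERKO, the one lacking Xist, 3.99 and 2.64.

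**Figure D3:**
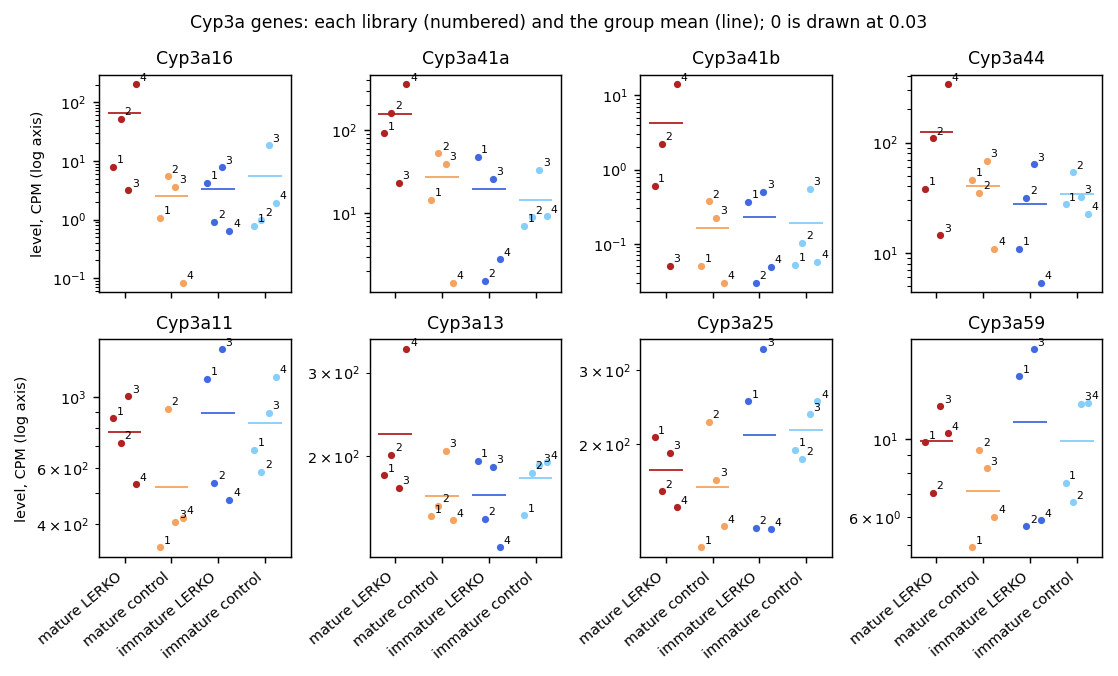
Level in CPM (log axis, 0 drawn at 0.03) of the 8 tested Cyp3a genes in each library, numbered within its group, with the group mean as a line. For Cyp3a16, Cyp3a41a, Cyp3a41b and Cyp3a44 the mature LERKO libraries run in the order 4, 2, 1, 3 from high to low. Cyp3a11 runs in the reverse order, and Cyp3a25 and Cyp3a59 follow neither.

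The other Cyp3a genes were steadier. Cyp3a11, a PXR target and a main drug-metabolising enzyme, stood at 857, 719.9, 1005 and 533 CPM in mature LERKO, against 337, 921, 405 and 418 CPM in mature controls. Library 4 was the lowest of the mature LERKO group here, and the groups overlapped through control library 2. The log2 fold change was 0.58 (SE 0.37, adjusted p = 0.739, edgeR). It was 0.76 without library 4 of mature LERKO and 0.92 without the 3 libraries with most muscle transcripts. Cyp3a13 stood at 182, 201, 171 and 336 CPM in mature LERKO and at 149, 157, 205 and 146 CPM in mature controls. The libraries of mature LERKO again ran in the order 4, 2, 1, 3, and the fold change was 0.44 on the log2 scale (SE 0.20, adjusted p = 0.683, edgeR), or 0.20 without library 4. Cyp3a25, another Cyp3a gene of adult liver, stood at 208, 155, 191 and 142 CPM in mature LERKO, against 114, 226, 165 and 128 CPM in mature controls. The groups overlapped, and its log2 fold change was 0.14 (SE 0.29, adjusted p = 0.946, edgeR). All 8 tested 3A genes had positive fold changes in mature LERKO against control, with a median of 1.11, or of 0.62 without library 4 of mature LERKO. Stellate markers summed to 62.3 to 250.5 CPM in mature LERKO and 261 to 354 CPM in mature controls, and endothelial markers to 92.0 to 218 and 197 to 274 CPM in the same order. Their part in the P450 values was not tested. In immature LERKO against control 4 were positive and 4 negative, with a median of 0.03. Cluster neighbours with shared sequence are not independent of each other.

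Family 1 is the Ahr-responsive family. Cyp1a2, which metabolises caffeine and is pericentral, stood at 477, 452, 484 and 184 CPM in mature LERKO, against 539.7, 550, 682 and 422 CPM in mature controls. All but the value of library 4 in mature LERKO lay above the lowest control, and the log2 fold change was -0.46 (SE 0.24, adjusted p = 0.711, edgeR), or -0.19 without that library. Immature LERKO held 448, 534, 595 and 393 CPM, against 613, 626, 568 and 506 CPM in immature controls. Cyp1a1 was near the detection limit, with 5 to 25 counts per library and 0.254 to 1.27 CPM. Of the 9 genes on a list of Ahr targets 6 were tested, and none was called in any comparison. Ahr itself averaged 42.3 ± 7.76 CPM in mature LERKO and 42.8 ± 4.04 CPM in mature controls (SD, n = 4 each).

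Cyp2e1 stood at 9075, 11084, 7809 and 5107 CPM in mature LERKO, against 8254, 8091, 10356 and 10013 CPM in mature controls. In immature mice it stood at 9010.3, 12748, 9529.8 and 5336 CPM in LERKO, against 15739, 11934, 9824 and 16588 CPM in controls. Immature controls were the highest group, with libraries 2 and 3 inside the range of immature LERKO. The log2 fold change was -0.15 in mature LERKO against control (SE 0.26), or 0.05 without library 4 of mature LERKO, and -0.56 in immature LERKO against control (SE 0.26, adjusted p = 1.0, edgeR). Without both libraries numbered 4 of the LERKO groups the immature value was -0.36, and without immature LERKO library 2, the one lacking Xist, it was -0.77. Summed pericentral markers ran from 2009.6 to 2725 CPM in mature LERKO and from 2384 to 2647 CPM in mature controls, and from 2323 to 2873 CPM in immature LERKO and from 2383 to 2761 CPM in immature controls.

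In the 2A subfamily, Cyp2a5 stood at 1920.4, 1971, 1303 and 644 CPM in mature LERKO, against 1538, 2056, 2508 and 1432 CPM in mature controls. Immature LERKO held 2081, 1038, 2083 and 1079 CPM, against 1916, 1277, 1838 and 2963 CPM in immature controls. The groups overlapped in both stages, and the log2 fold changes were -0.37 (SE 0.35) and -0.35 (SE 0.35). Without library 4 of mature LERKO the mature value was -0.09. A share of 25.5% of the 75-base stretches of Cyp2a5 also occurs in another P450 transcript, mostly Cyp2a4. Cyp2a12, which 7-hydroxylates bile acids in mice, ranged from 378 to 746 CPM over all libraries. Cyp2a22 was far more variable, at 120, 142, 166 and 12.6 CPM in mature LERKO and 56.9, 151, 77.7 and 68.1 CPM in mature controls.

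Cyp2b10, the textbook CAR target, was low in all groups. It stood at 1.27, 2.53, 5.22 and 0.178 CPM in mature LERKO, against 1.32, 1.63, 1.30 and 3.74 CPM in mature controls. In immature LERKO it was 2.94, 1.87, 2.06 and 1.47 CPM, against 0.674, 3.41, 3.77 and 4.94 CPM in immature controls. The groups overlapped, and the log2 fold changes were 0.21 (SE 0.65) and -0.61 (SE 0.64). The mature value was 0.61 without library 4 of mature LERKO and -0.13 without the 3 libraries with most muscle transcripts. CAR (Nr1i3) averaged 269.7 ± 25.8 CPM in mature LERKO and 306 ± 87.4 CPM in mature controls (SD, n = 4 each), and PXR (Nr1i2) 98.8 ± 12.0 and 108 ± 9.14 CPM in the same order.

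The 2C subfamily, whose enzymes oxidise drugs and arachidonic and linoleic acid, had 13 tested members. In mature LERKO against control 6 fold changes were positive and 7 negative (median -0.06), and in immature LERKO against control 4 were positive and 9 negative (median -0.10). Cyp2c70, which makes muricholic acids, the bile acids typical of mice, stood at 424, 388, 934 and 771 CPM in mature LERKO, against 377, 354, 520.4 and 354 CPM in mature controls. Its log2 fold change was 0.65 (SE 0.36, adjusted p = 0.711, edgeR), or 0.57 without library 4 of mature LERKO, with libraries 3 and 4 of LERKO above all controls. Cyp2c23, an epoxygenase gene, stood at 207, 415, 335 and 239 CPM in immature LERKO, against 414, 516, 289.7 and 362 CPM in immature controls. It gave -0.40 on the log2 scale (SE 0.26), and -0.60 without immature LERKO library 2, its highest. Cyp2c29 stood at 479, 561, 685 and 327 CPM in mature LERKO, against 301, 539, 428 and 388 CPM in mature controls, a log2 fold change of 0.31 (SE 0.28), or 0.51 without library 4 of mature LERKO.

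Cyp2c40, Cyp2c67, Cyp2c68 and Cyp2c69 share 28.5 to 57.1% of their 75-base stretches with other P450 transcripts, so their counts are uncertain where reads could be split. In immature LERKO library 2, which lacks Xist, all of these were the highest of their group, with Cyp2c69 at 742 CPM against 95.7, 299 and 144 CPM in libraries 1, 3 and 4. Cyp2c54 did the same, at 267 CPM against 68.1, 140.1 and 31.5 CPM. Cyp2c67 gave a log2 fold change of -0.47 (SE 0.24) in mature against immature LERKO and of -0.10 without that library. Cyp2c55 had 1 to 36 counts per library. Its log2 fold change was -0.77 (SE 0.57) in mature and 1.36 (SE 0.59) in immature LERKO against control, and the difference of both, -2.13 (SE 0.82), did not pass (adjusted p = 0.768, edgeR).

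**Figure D4:**
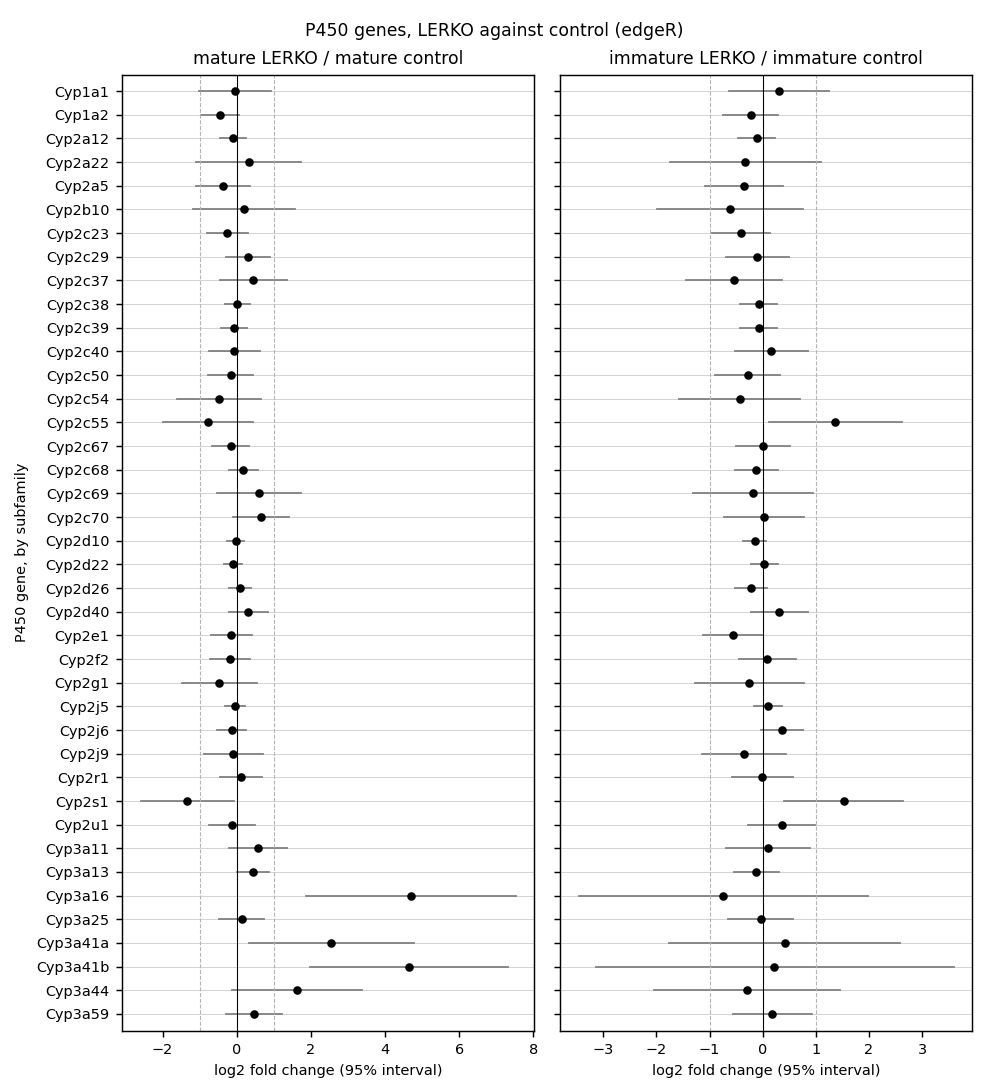
Log2 fold change (point) and 95% interval (line) of each tested P450 gene for mature LERKO against mature control (left) and immature LERKO against immature control (right), with dashed lines at a 2-fold change. Cyp3a16 and Cyp3a41b lie farthest right in mature mice, at 4.69 and 4.65, with intervals that span several log2 units, and no gene passed after adjustment.

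The steadiest members were 2D and 2J genes. Cyp2d10, Cyp2d22, Cyp2j5 and Cyp2d26 had SDs within groups of 0.12, 0.15, 0.16 and 0.19 on the log2 scale. Cyp2j5, an arachidonic acid epoxygenase, stood at 579, 512, 483 and 495 CPM in mature LERKO, against 538, 513, 538 and 541 CPM in mature controls. Its log2 fold change was -0.04 in mature LERKO against control, with a 95% interval of -0.31 to 0.23, and 0.09 in immature LERKO against control, with an interval of -0.17 to 0.36. Cyp2d10 gave -0.03 (interval -0.25 to 0.20) and -0.15 (interval -0.37 to 0.07) in the same comparisons. For these genes a 2-fold change in either direction lies outside the interval, although 26.6% of the 75-base stretches of Cyp2d10 also occur in another P450 transcript, mostly Cyp2d11. Cyp2j6, which oxidises unsaturated fatty acids, stood at 57.7, 59.1, 64.5 and 73.2 CPM in immature LERKO, against 42.7, 39.6, 76.7 and 38.8 CPM in immature controls, where library 3 alone lay above LERKO. It gave 0.36 on the log2 scale (SE 0.19). Cyp2d40 was an exception to the narrow spread, with mature LERKO library 4 at 118 CPM, against 41.8 to 51.8 CPM in the other libraries of that group and 49.1 to 57.4 CPM in mature controls. Its log2 fold change was 0.31 with that library and -0.12 without it.

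Several single-member subfamilies were of middle or low level. Cyp2f2, which activates naphthalene in lung and is periportal in liver, stood at 300.5, 304, 181 and 387 CPM in mature LERKO, against 366, 257, 370 and 333 CPM in mature controls. An antisense gene covers 13.5% of its exons, and with the strand setting unknown the counts of both cannot be told apart. Cyp2r1, the vitamin D 25-hydroxylase, ranged from 4.82 to 12.0 CPM and Cyp2u1, a fatty acid hydroxylase, from 3.75 to 12.2 CPM over the 16 libraries, with log2 fold changes of 0.12 and -0.12 in mature LERKO against control. Cyp2g1, known from olfactory tissue, had 4.98, 6.07, 0.304 and 5.81 CPM in mature LERKO, so that library 3 alone was near 0, against 6.75, 5.72, 7.55 and 3.79 CPM in mature controls.

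Cyp2s1, an enzyme of epithelia, was the member with the smallest unadjusted p in immature LERKO against control, at 0 to 22 counts per library. It stood at 0.598, 1.17, 1.23 and 0.686 CPM in immature LERKO, against 0.156, 0.465, 0.301 and 0.340 CPM in immature controls. In mature mice it stood at 0.152, 0.253, 0.304 and 0.0 CPM in LERKO, against 0.609, 0.837, 0.223 and 0.252 CPM in controls. Every immature LERKO library thus lay above every immature control and above every mature LERKO library. It was the only P450 gene whose groups did not overlap in immature LERKO against control, 1 of 40, where 1.63% of all genes did not overlap. In mature against immature LERKO it was again 1 of 40, against 1.52% of all genes. The log2 fold change was 1.52 in immature LERKO against control (SE 0.53, adjusted p = 1.0) and -2.27 in mature against immature LERKO (SE 0.56, adjusted p = 0.951), both by edgeR.

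In mature LERKO against control the log2 fold change of Cyp2s1 was -1.34 (SE 0.59, adjusted p = 0.666), and the difference of both LERKO effects was -2.85 (SE 0.79, adjusted p = 0.609, edgeR). The mature controls with the highest Cyp2s1 were libraries 1 and 2, which had most skeletal muscle transcripts. Without the 3 libraries richest in muscle transcripts the mature value was -0.36 and the immature one 1.64. A lincRNA on the opposite strand covers 5.3% of its exons.

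Between the labelled stages, members leaned to negative fold changes. In mature against immature controls 28 of 40 were negative, with a median of -0.22, where 46.9% of all genes were negative and their median was 0.02. In mature against immature LERKO 26 of 40 were negative, with a median of -0.14, where 49.6% of all genes were negative. These counts carry no test of the list. Without the libraries numbered 4 of both LERKO groups, 29 of 41 members were negative in controls and 28 of 41 in LERKO. The lean in LERKO was 22 of 41 (median -0.03) without mature LERKO library 4 alone and 21 of 41 (median -0.02) without immature LERKO library 3. That in controls was 25 of 41 (median -0.12) without immature control library 3. In controls the groups did not overlap for 5 of 40 members, all lower in mature mice. In that direction alone 2.75% of all genes did not overlap, and the share for both directions is not given here. At an unadjusted p below 0.05 (edgeR), 1011 of all tested genes were higher in mature than in immature controls and 306 lower. In mature LERKO against mature control 0 of 40 members were without overlap, where 3.9% of all genes did not overlap in either direction.

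Cyp2d26 stood at 899.8, 1114, 1048 and 1001 CPM in mature controls, against 1338, 1204, 1215 and 1590.3 CPM in immature controls. Cyp2d10 stood at 519, 509, 490.2 and 480.1 CPM in mature controls, against 569, 643, 532 and 586 CPM in immature controls. Cyp2c50 stood at 423, 374, 431 and 354 CPM in mature controls, against 596, 632, 522 and 496 CPM in immature controls. Cyp2c37, like Cyp2c50 an epoxygenase gene, stood at 304, 572, 498 and 396 CPM in mature controls, against 813, 691, 601 and 908 CPM in immature controls. Cyp2c68, the fifth, had 429.9, 409.8, 413 and 382 CPM in mature controls, against 453, 550.2, 464 and 441 CPM in immature controls.

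The log2 fold changes of these genes in mature against immature controls were -0.40 for Cyp2d26 (SE 0.14, adjusted p = 0.374), -0.22 for Cyp2d10 (SE 0.10, adjusted p = 0.507), -0.51 for Cyp2c50 (SE 0.29, adjusted p = 0.620) and -0.77 for Cyp2c37 (SE 0.42, adjusted p = 0.606), all by edgeR. For Cyp2c68 the value was -0.22 (SE 0.19, adjusted p = 0.77, edgeR). Cyp2e1 gave -0.56 (SE 0.26, adjusted p = 0.502), its groups overlapping through immature control library 3. Stellate markers, at 261 to 354 CPM in mature controls and 164 to 214 CPM in immature controls, and endothelial markers, at 197 to 274 and 129 to 193 CPM in the same order, also differed between these groups, and muscle markers summed to 0.67 to 580.1 CPM in mature controls and 0.502 to 1.09 CPM in immature controls. Their part in the P450 values was not tested. The 3 libraries with most muscle transcripts were mature control libraries 1 and 2 and immature LERKO library 4. Without them Cyp2d26 gave -0.39, Cyp2c50 -0.52, Cyp2c37 -0.76 and Cyp2e1 -0.42. That left mature control libraries 3 and 4 alone, and library 4 still held 44.7 CPM of muscle markers.

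Pooled over both genotypes, mature against immature mice gave -0.25 for Cyp2d26 (SE 0.10, adjusted p = 0.578) and -0.44 for Cyp2c50 (SE 0.20, adjusted p = 0.616, edgeR). The smallest adjusted p of a member belonged to a positive change, 1.95 for Cyp3a41a (SE 0.74, adjusted p = 0.536, edgeR). Cyp3a44 gave 1.20 (SE 0.58). Without mature LERKO library 4 Cyp3a41a gave 1.56 and Cyp3a44 0.59. Without the libraries numbered 4 of mature and of immature LERKO, a setting chosen after the data were seen, Cyp2c50 passed, at -0.41 with an adjusted p of 0.0406 (edgeR), 1 of 49 genes called there. Cyp2c50 shares 17.8% of its 75-base stretches with other P450 transcripts, mostly Cyp2c37. Pooled over both stages, LERKO against control gave 2.44 for Cyp3a41b (SE 1.05) and 1.97 for Cyp3a16 (SE 0.90). In the other direction it gave -0.36 for Cyp2e1 (SE 0.18) and -0.35 for Cyp1a2 (SE 0.17). Each had an adjusted p of 0.999 (edgeR). Without mature LERKO library 4 Cyp3a41b gave 1.43, Cyp3a16 1.19, Cyp2e1 -0.25 and Cyp1a2 -0.20.

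**Figure D5:**
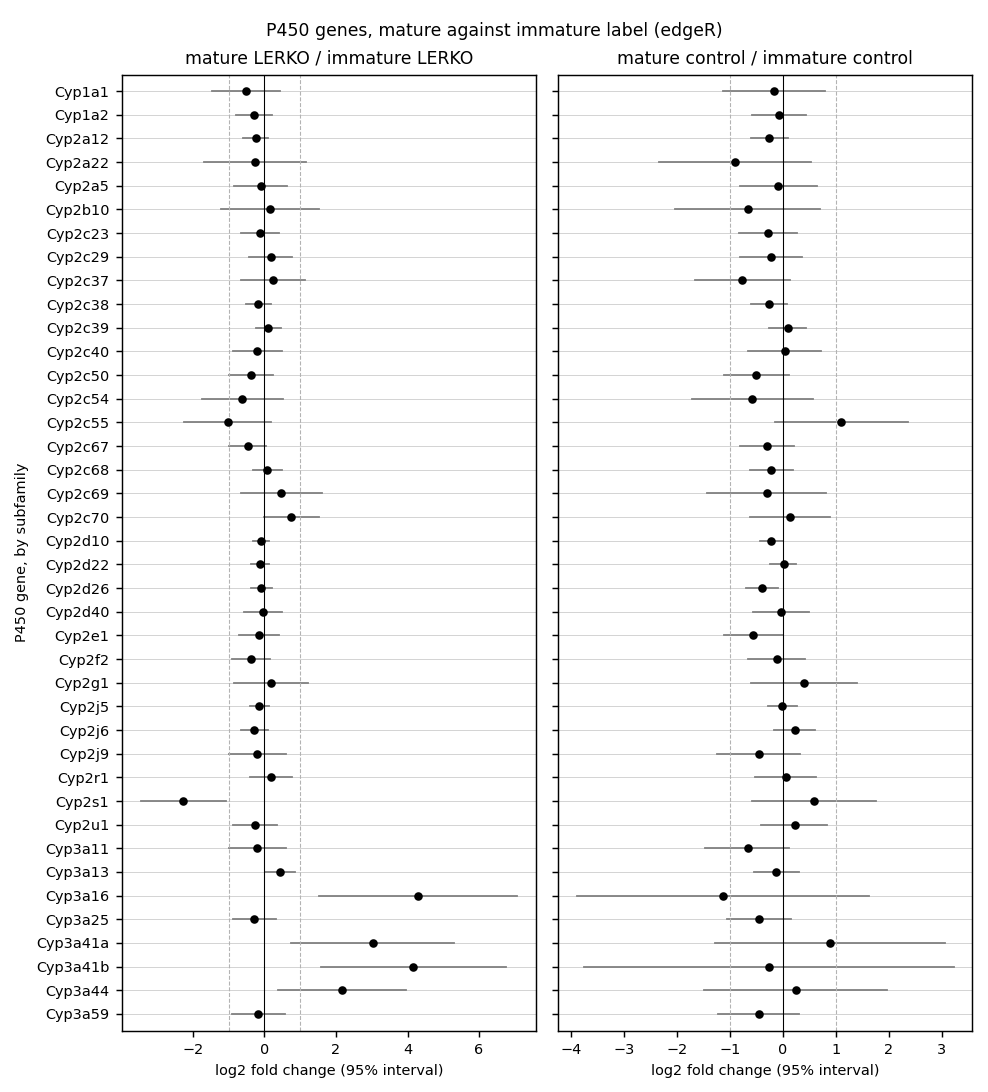
Log2 fold change (point) and 95% interval (line) of each tested P450 gene for mature against immature LERKO (left) and mature against immature controls (right), with dashed lines at a 2-fold change. In controls 28 of 40 points lie left of 0, and in LERKO 26 of 40. Cyp3a16 and Cyp3a41b lie farthest right in LERKO, at 4.30 and 4.16, with wide intervals.

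The proteins that serve P450 enzymes and the factors that govern their genes were looked at through lists chosen with earlier results of these data known. Of 18 genes for electron donors and haem synthesis, all tested, none was called in any comparison, and the median log2 fold change was -0.01 in mature and -0.05 in immature LERKO against control. Por stood at 1172, 1585, 843 and 972 CPM in mature LERKO, against 1129, 961, 1442 and 1529 CPM in mature controls, a log2 fold change of -0.15 (SE 0.21). Cyb5a, an electron donor, averaged 886 ± 128 CPM in mature LERKO and 953 ± 72.4 CPM in mature controls, and Pgrmc1, a haem-binding partner of P450 enzymes, 899 ± 67.0 and 903 ± 70.4 CPM in the same order (SD, n = 4 each). Alas1, the first enzyme of haem synthesis, was variable, at 303 to 1434 CPM over the libraries.

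Of 28 receptors and regulators 27 were tested and none was called, with medians of -0.02 in mature and -0.11 in immature LERKO against control. In immature LERKO against control 22 of the 27 were negative, where 46.8% of all genes were negative. At an unadjusted p below 0.05 (edgeR) stood 0 of the 27, against 2.76% of all genes. The count carries no test of the list. Hnf4a averaged 929 ± 163 CPM in mature LERKO and 798 ± 126 CPM in mature controls, Rxra 537 ± 51.3 and 508 ± 32.3 CPM, and Cebpa 511 ± 61.4 and 517 ± 59.8 CPM (SD, n = 4 each). Among the Ahr targets Ugt1a6a averaged 751 ± 144 CPM in mature LERKO and 794 ± 60.2 CPM in mature controls, and Lpin1, 259 ± 26.9 and 457 ± 304 CPM (SD, n = 4 each).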

How the data were processed

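Liver RNA of 16 mice was sequenced as stranded, paired-end mRNA libraries after column extraction with DNase, per the labels' protocols. The submitters' processing notes name mm10, STAR, limma and R 4.05; no source used here gives their roles, the annotation, the counting program or the settings for strand and shared reads. The authors deposited a table of counts, with 1 value per gene and library. In 5 columns the deposited values are treated as estimated counts, because 2 genes hold 10 values that are not whole, and these were rounded.

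Genes were kept by filterByExpr (minimum count 10, minimum total 15), which left 13379. TMM factors ran from 0.852 to 1.07. Tests used edgeR 4.0.16 in R 4.3.3 (glmQLFit and glmQLFTest, 1 coefficient per group, all 16 libraries), with Benjamini-Hochberg adjustment over all tested genes and a threshold of 0.05. The common biological coefficient of variation was 21.2%. The mice were individual animals, so the spread is between mice. Levels per kb divide CPM by the longest coding transcript of GENCODE vM21, to which all 56 members matched. Stretches of 75 bases shared between P450 transcripts show where reads could be split. The fit was checked on simulated counts. Alternatives were DESeq2 1.42.0, limma-voom (limma 3.58.1), other scalings and filters, an adjusted p of 0.1, the compared groups alone, each library left out, and libraries in doubt left out.

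The members, lists and tests were chosen with earlier results of these data known. Named were the 2 members of each subfamily with the highest level per kb, up to 3 in each direction with the smallest p in each comparison, members whose groups did not overlap, and the 3 most abundant genes of each other list; others were chosen after their values were seen, which concerns Cyp2a22, Cyp2c40, Cyp2c54, Cyp2c69, Cyp2c70, Cyp2d22, Cyp2d40, Cyp1b1, Cyp3a59, Saa1, Ahr, Nr1i2, Nr1i3 and Alas1. 1 gene that the rule names in a list other than the members is not reported here.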

Additional observations from a re-analysis of the deposited data

Results flagged for a closer look

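Among 29 P450 genes in 4 groups of 4 libraries (116 groups), 10 had a highest or lowest library whose gap to the next took more than 0.829 of the range of the group; chance flags about 1 group in 20. In mature LERKO, library 4 was far from the others for Cyp1a2, at 184 CPM, the lowest, and for Cyp3a41b, at 14.1 CPM, the highest. In mature controls, library 4 was far above the others for Cyp2b10, at 3.74 CPM, and library 2 for Cyp3a11, at 921 CPM. Library 2 of that group was far below for Cyp2j5, at 513 CPM, although that group spans a narrow range. In immature controls, library 3 was far above the others for Cyp2j5 at 680.5 CPM, Cyp2j6 at 76.7 CPM, Cyp3a16 at 18.6 CPM, Cyp3a41a at 33.5 CPM and Cyp3a41b at 0.552 CPM. Immature control library 3 thus holds 5 of the 10, for genes in 2 subfamilies on 2 chromosomes. These flags are not independent: Cyp3a16 and the Cyp3a41 genes are cluster neighbours, and Cyp3a41a and Cyp3a41b share most of their sequence. The Cyp3a41b value there rests on 11 counts.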

How the results depend on the processing

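No P450 gene was called in 6 of the 7 comparisons under any of the alternatives run, and leaving out each library in turn gave 0 to 0 called members in all 7. In mature against immature mice over both genotypes, 1 member, Cyp2c50, was called without library 4 of mature and of immature LERKO, where 13438 genes were tested and 49 called; the cause was not tested. The fold change of Cyp2s1 in mature against immature controls was 0.58 and turned to -0.40 without the 3 libraries with most muscle transcripts, 2 of which are the mature controls with the highest values. Scaling by library size alone moved the median of all genes for the difference of LERKO effects to -0.13, against -0.01 with TMM, and the median of the members to 0.03, against 0.13. With that scaling 24 of 40 members were negative in mature against immature controls, against 28 with TMM. Medians over the members ranged from -0.09 to 0.12 in mature and from -0.20 to 0.05 in immature LERKO against control. No paired analysis was possible because the labels give no replicate numbers shared between groups. Low counts limit Cyp1a1, Cyp2c55, Cyp2s1 and Cyp3a41b. Cyp2b10 fell to 3 counts in mature LERKO library 4, Cyp2g1 to 6 in mature LERKO library 3 and Cyp3a16 to 2 in mature control library 4. Shared sequence limits Cyp2a5, Cyp2a12, Cyp2a22, Cyp2c37, Cyp2c40, Cyp2c50, Cyp2c54, Cyp2c67, Cyp2c68, Cyp2c69, Cyp2d10, Cyp3a25, Cyp3a44, Cyp3a59 and the Cyp3a41 genes.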
